A study of Mus musculus with 24 samples.

Results

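The miR-29 family of the mouse carotid intima was measured through its 3 main-strand members, miR-29a, miR-29b and miR-29c. They were picked by probe name, as the probes named for these strands without a star, and make up 3 of the 655 miRNA probes in each deposited table. In the study, most caudal branches of the left carotid were tied in male C57Bl6 mice aged 6 to 8 weeks (partial ligation), and the lining of each carotid was later flushed out for RNA. The 4 groups are the partially ligated left carotid and the right carotid at 12 h, and the same arteries at 48 h, with 6 Illumina bead arrays each. All groups come from operated mice, so flow, surgery and body side cannot be told apart between left and right. The labels do not say whether numbered samples are separate mice, pools or both arteries of one mouse, so p-values cover only sample-to-sample spread, part of which may be technical.

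miRNAs are short RNAs that pair, mainly through the seed near their 5′ end, with sites in messenger RNAs and lower their output. The miR-29 family is known as a repressor of extracellular matrix genes, including fibrillar collagens, elastin and fibrillin, and transforming growth factor beta signalling is known to lower it in fibroblasts. In the artery wall it is known from smooth muscle cells and adventitial fibroblasts as well as endothelium, and blocking it raises collagen in mouse aneurysm models. Collagen and elastin transcripts were not measured on these arrays.

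The mature sequences are shown because the 3 members share one seed, bases 2 to 8, in capitals, and differ only outside it. They are from RefSeq (GRCm38.p6), all 3 members matched, and each equals the target sequence that the array files give for its probe.
miR-29a: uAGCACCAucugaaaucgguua
miR-29b: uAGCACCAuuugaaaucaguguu
miR-29c: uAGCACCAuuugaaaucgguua
Counted from 1 at the 5′ end and over the first 22 bases, miR-29a differs from miR-29c by U10C. miR-29b differs from miR-29c by G18A, U21G and A22U. The seed AGCACCA stood in the target sequence of 3 of the 655 probes, the family itself.

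The probes are shorter than the miRNAs and are shown because they decide how well the members can be told apart. Capitals mark the bases that differ from the miR-29c probe.
miR-29a probe: tagcaccatCtgaaatcg
miR-29b probe: tagcaccatttgaaatcAg
miR-29c probe: tagcaccatttgaaatcg
Over the 18 bases compared, the miR-29c and miR-29a probes differ by T10C and the miR-29c and miR-29b probes by G18A. Whether a probe also picks up another member was not tested. On the 48 h array of left sample 3, miR-29a and miR-29b were not detected (raw signals of 30 and 68), while miR-29c was (965).

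The family is made from 4 hairpins in 2 clusters, printed with the mature strand in capitals (RefSeq, GRCm38.p6).
Mir29a, chr6:31062660-31062747, minus strand: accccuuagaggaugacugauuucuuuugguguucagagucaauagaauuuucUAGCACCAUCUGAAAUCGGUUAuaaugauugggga
Mir29b-1, chr6:31063023-31063093, minus strand: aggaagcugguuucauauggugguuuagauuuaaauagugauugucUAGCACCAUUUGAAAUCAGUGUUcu
Mir29b-2, chr1:195037040-195037120, plus strand: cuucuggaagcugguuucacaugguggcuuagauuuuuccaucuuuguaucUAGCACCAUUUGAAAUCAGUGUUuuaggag
Mir29c, chr1:195037547-195037634, plus strand: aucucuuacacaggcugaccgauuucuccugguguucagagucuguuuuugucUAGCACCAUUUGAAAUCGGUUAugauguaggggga
The 2 hairpins on chromosome 6 lie 275 bases apart, and no other gene in the annotation encloses them. Those on chromosome 1 lie 426 bases apart, inside the long noncoding RNA gene A330023F24Rik. Both copies of Mir29b give the same mature strand, so the miR-29b probe reads their sum, while the miR-29a and miR-29c probes each have 1 source hairpin.

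Between 335 and 431 probes were detected per array, meaning a detection p-value under 0.05. In both arteries at 12 h, array 1 matched array 4, array 2 matched array 5 and array 3 matched array 6, with rank correlations of 0.986 or more, against 0.877 or less for other pairs. The labels do not mark such repeats. Each pair was averaged as 1 sample, which leaves 3 samples per artery. At 48 h no such pairs occurred and each artery has 6 samples. Both strands of miR-126, the endothelial marker, were detected on all 24 arrays, and so were miR-143 and miR-145 (2 of 3 smooth muscle markers, miR-145* being detected on none) and miR-199a-5p and miR-214, 2 of 3 fibroblast markers. The other fibroblast marker, miR-199a-3p, has a joint probe name with miR-199b and was left out of the sums. The summed endothelial signal ran from 43004 to 46678 in left and 44645 to 48184 in right samples at 12 h, and from 5560 to 24491 in left and 1404 to 27882 in right samples at 48 h. The summed raw signal of the smooth muscle list ran from 17736 to 30860 in left and 27028 to 31504 in right samples at 12 h, and from 24998 to 38002 in left and 26745 to 41867 in right samples at 48 h. The fibroblast sums were 6349 to 11931 (left) and 11431 to 15378 (right) at 12 h, and 16995 to 26263 (left) and 14817 to 28311 (right) at 48 h, and their part in the miR-29 values was not tested. The erythroid sums were 4300 to 5994 (left) and 1726 to 7390 (right) at 12 h, and 24074 to 43670 (left) and 22260 to 39325 (right) at 48 h. On every array of a group, 2 of 3 erythroid markers, 1 or 2 of 5 for striated muscle, 1 or 2 of 7 for epithelium, 0 or 1 of 2 for neurons and 0 of 1 for liver were detected. In such bulk RNA, fewer cells of a type and less miRNA per cell cannot be told apart.

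At 12 h after ligation all 3 members were detected on every array of both arteries, and none differed between left and right past the threshold. Values below are normalized log2 signals, which have no unit and are not compared between probes. miR-29a stood at 13.56, 13.78 and 13.71 in the left samples and at 13.89, 13.78 and 13.87 in the right samples. The highest left and the lowest right sample are equal at this rounding, but the arteries did not overlap, as for 19.1% of all 430 probes tested. The left mean was 13.68 ± 0.11 and the right mean 13.85 ± 0.06 (SD, n = 3 each), a difference of -0.17 ± 0.07 SE (limma adjusted p = 0.495). The exact permutation test over these 6 samples gave p = 0.100, the smallest it can give.

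miR-29b, the member made from both clusters, stood at 13.08, 13.36 and 13.20 in the left samples and at 13.34, 13.63 and 13.58 in the right samples. The highest left sample lay above the lowest right one, so the arteries overlapped. The difference was -0.30 ± 0.11 SE, with an unadjusted p of 0.0346 and an adjusted p of 0.413 (limma). For miR-29c the left samples read 13.42, 13.62 and 13.32 and the right samples 13.47, 13.56 and 13.47. Here the left samples lay on both sides of the right ones, and the difference was -0.05 ± 0.09 SE (limma adjusted p = 0.874).

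In counts, 0 of the 3 members passed limma's adjusted threshold of 0.05 at 12 h, where 0.465% of all probes did. At an unadjusted p under 0.05 it was 1 of 3, miR-29b, against 9.53% of all probes. All 3 differences were below 0, as were 55.6% of all. Scaled to the 75th percentile in place of quantile normalization, the median of all probes moved to 0.07, against -0.05, and the members stood at -0.13, -0.29 and -0.02. After normalization, 2 repeat arrays of a sample differed by a median of 0.08 for miR-29a, 0.04 for miR-29b and 0.02 for miR-29c (log2, 6 pairs each). These differences include the effect of normalization, so they do not measure the reading alone. For miR-29b the raw signals of left sample 3 were 8476 and 11148, while no normalized pair differed by more than 0.07. For miR-29a 1 normalized pair differed by 0.30, more than the difference between the arteries.

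**Figure D1:**
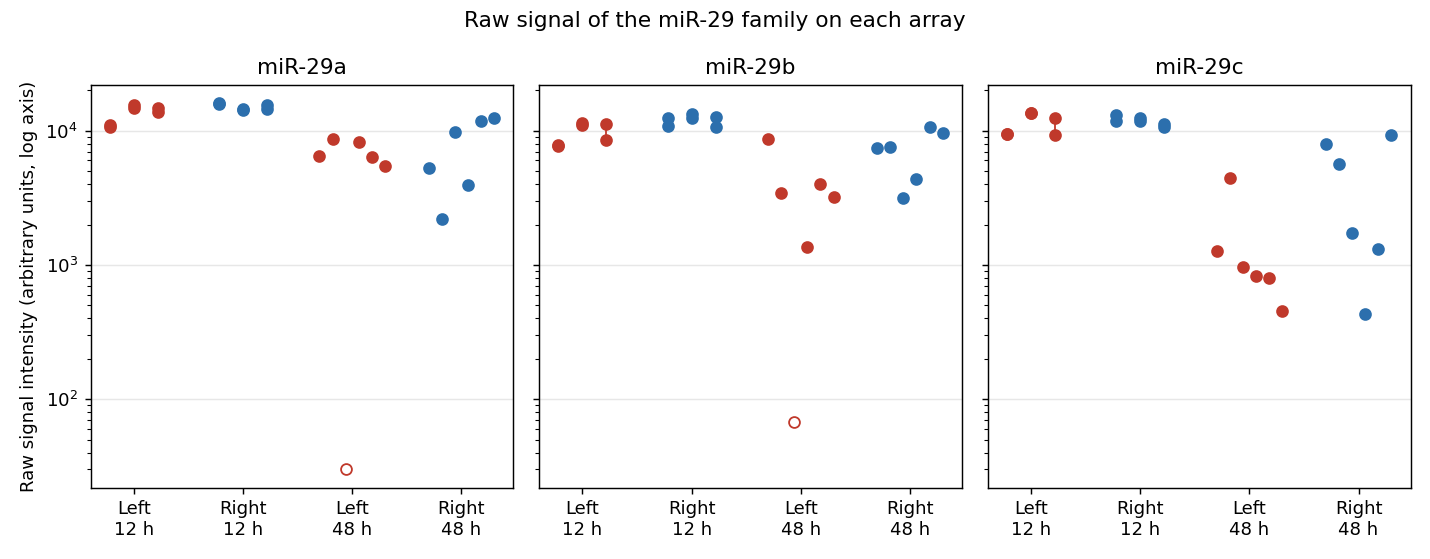
Raw signal intensity (arbitrary units, log axis) of miR-29a, miR-29b and miR-29c on each of the 24 arrays, for left and right carotid at 12 h and at 48 h. Each point is an array, lines join repeat arrays of 1 sample at 12 h, and open points are arrays on which the probe was not detected: left sample 3 at 48 h, at 30 for miR-29a and 68 for miR-29b.

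At 48 h the family was more scattered than at 12 h, and again no member differed between left and right past the threshold. In raw signal, miR-29a had a lowest value of 30, a median of 6436 and a highest of 8692 in the left samples, against 2198, 7539 and 12358 in the right samples. Only left sample 3 was below the lowest right sample, and the other 5 left samples lay inside the right range. On the normalized log2 scale the left mean was 11.48 ± 3.18 and the right mean 12.74 ± 0.67 (SD, n = 6 each), a difference of -1.26 ± 1.23 SE (limma adjusted p = 0.625). Without left sample 3 the difference was 0.03 ± 0.31 SE, with a 95% interval of -0.65 to 0.71 (limma adjusted p = 0.983).

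The miR-29b signals were 68, 3314 and 8741 (lowest, median, highest) in the left samples and 3166, 7534 and 10737 in the right samples. Left samples 3 and 4, at 68 and 1354, lay below every right sample, and the rest overlapped. Of the 6 left samples, 5 were under the right mean. The normalized left mean was 10.66 ± 2.75 and the right mean 12.68 ± 0.58 (SD, n = 6 each), a difference of -2.02 ± 1.07 SE (limma adjusted p = 0.307). The exact permutation test on the same samples gave an unadjusted two-sided p of 0.0411, and 0.0628 without left sample 3. Without that sample the difference was -0.95 ± 0.45 SE, with a 95% interval of -1.93 to 0.04 (limma adjusted p = 0.289).

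miR-29c was detected on all 12 arrays at 48 h and had the widest right carotid spread of the 3. Its raw signals were 451, 893 and 4463 (lowest, median, highest) in the left samples and 434, 3673 and 9295 in the right samples. The left samples, apart from left sample 2 at 4463, stood at 1261 or less. Right samples 1, 2 and 6 stood at 7937, 5608 and 9295, above every left sample, while right samples 3, 4 and 5 stood at 1738, 434 and 1317, low like most left samples. Which sample is lowest depends on the scale: in raw signal it was right sample 4, and after normalization right sample 5, at 9.08, with right sample 4 at 10.37 inside the left range. The normalized left mean was 10.06 ± 1.08 and the right mean 11.43 ± 1.64 (SD, n = 6 each), a difference of -1.38 ± 0.78 SE (limma adjusted p = 0.349, exact permutation p = 0.0974). It was -1.38 ± 0.84 SE without left sample 3 as well (limma adjusted p = 0.388), and ran from -1.91 without right sample 5 to -1.03 without right sample 1.

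At 48 h 0 of the 3 members passed limma's adjusted threshold, where 2.95% of 407 probes did (1.97% higher and 0.983% lower), and 0 of 3 had an unadjusted p under 0.05, against 17.7% of all. That unadjusted count became 1 of 3 in 5 alternatives. The member was miR-29b without left sample 1, with scaling to the 75th percentile and with the replicate block (limma adjusted p = 0.264, 0.353 and 0.271). It was miR-29c without left sample 2 and without right sample 5 (limma adjusted p = 0.264 and 0.182). All 3 differences were below 0, against 50.1% of all probes. The arteries overlapped for all 3, and failed to overlap for 4.67% of all probes. The 95% intervals, -3.93 to 1.41 for miR-29a, -4.35 to 0.30 for miR-29b and -3.07 to 0.32 for miR-29c, hold falls of several log2 units as well as no change. A p that misses the threshold does not show that the arteries are alike. The summed raw leukocyte marker signal ran from 25365 to 33021 in left and 1592 to 20874 in right samples at 48 h, without overlap. It is not adjusted for the differing array medians. Of its 4 markers, miR-223 had a normalized left minus right difference of 1.95 ± 0.60 SE (limma adjusted p = 0.107). miR-150 and miR-142-3p stood at 0.51 ± 1.15 SE and 0.15 ± 0.39 SE (limma adjusted p = 0.857 and 0.866). miR-142-5p was detected on no left array at 48 h. The part of the leukocyte signal in the miR-29 differences was not tested.

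**Figure D2:**
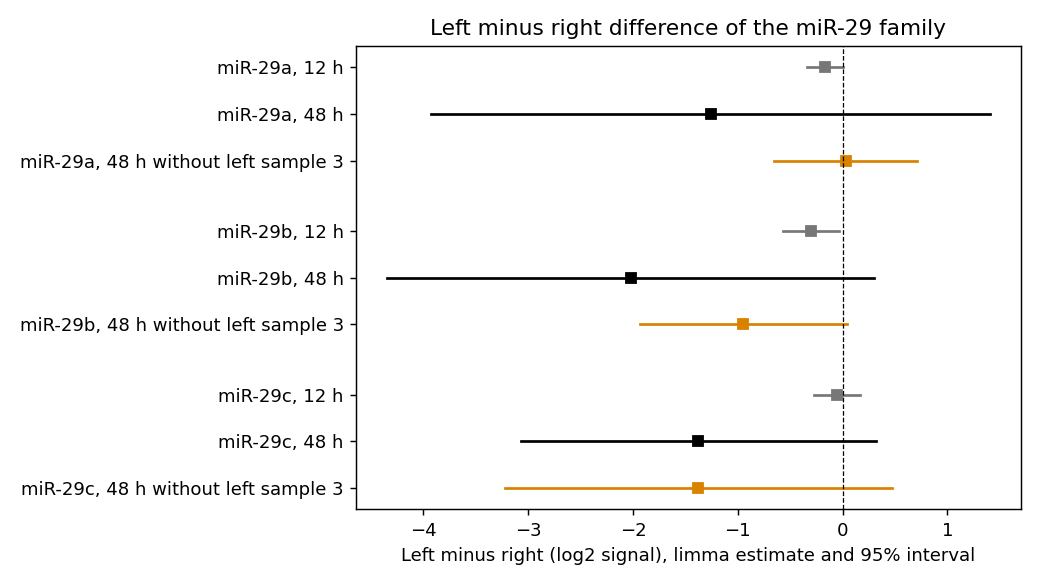
Left minus right difference of each member (log2 signal) at 12 h, at 48 h and at 48 h without left sample 3, as the limma estimate (square) with its 95% interval (line), and 0 as a dashed line. The 12 h values lie between -0.30 and -0.05 with short lines, and dropping left sample 3 moves the 48 h value of miR-29a to 0.03 and leaves that of miR-29c at -1.38.

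Loss of single probes occurred on most arrays at 48 h but was uneven. All arrays but right sample 5 missed at least 1 probe that every other 48 h array detected. The number ran from 0 to 11 over the 12 arrays, and from 0 to 8 over the arrays of 12 h. Apart from right samples 1 and 4 and left sample 3, no 48 h array missed more than 2. Right sample 1 missed 11, right sample 4 missed 6 and left sample 3 missed 7. The 7 were miR-29a, miR-29b, let-7c, miR-152, miR-30c, miR-30d and miR-99b*. It detected 369 probes in all, within the range of 335 to 410 at 48 h. miR-29c and the minor strand miR-29a* were detected in it, at raw signals of 965 and 1537.

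The change of the left-right difference between the times was tested directly, as the 48 h difference minus the 12 h difference. It was -1.09 ± 1.83 SE for miR-29a, -1.72 ± 1.59 SE for miR-29b and -1.33 ± 1.13 SE for miR-29c (limma adjusted p = 0.855, 0.716 and 0.716). None of the 3 passed, where 0.211% of 474 probes did, and the lowest unadjusted p of the 3 was 0.258 (limma), for miR-29c. Leaving out left sample 3 of 48 h gave 0.20 for miR-29a and -0.64 for miR-29b. The fit used 1 variance per probe for all 4 groups, although the members spread more at 48 h than at 12 h. Its SEs therefore carry the 48 h spread into the 12 h groups.

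**Figure D3:**
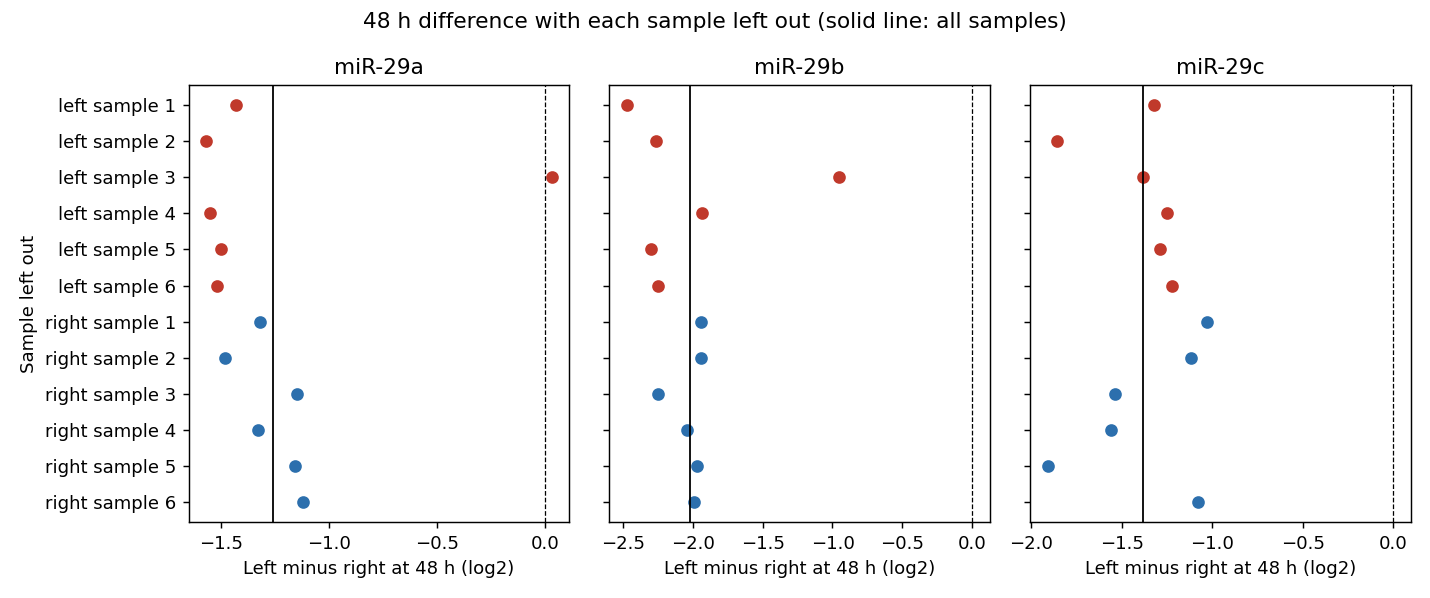
Left minus right difference at 48 h (log2 signal) of each member when 1 sample is left out, with red points for left and blue points for right samples, a solid line at the value from all samples and a dashed line at 0. Leaving out left sample 3 gives the highest value for miR-29a (0.03) and miR-29b (-0.95), while miR-29c runs from -1.91 to -1.03 with no single sample apart.

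All 3 members were lower at 48 h than at 12 h in both arteries, in raw medians, with all arrays normalized together and with each table normalized alone. The median raw signal of whole arrays also tended lower at 48 h (119 to 500, against 332 to 1030 at 12 h, with some overlap). The raw medians of the members are not adjusted for this. Each time point has its own deposited table, so time and table cannot be told apart. The values below, from all arrays normalized together, carry no test. In the left carotid, miR-29a averaged 11.51 ± 3.02 at 48 h and 13.64 ± 0.11 at 12 h, a difference of -2.12 (SD, n = 6 and 3). In the right carotid it averaged 12.74 ± 0.68 at 48 h and 13.79 ± 0.05 at 12 h, a difference of -1.06. For miR-29b the 48 h minus 12 h difference was -2.42 on the left and -0.83 on the right. miR-29c had the largest difference of the 3 in each artery, -3.15 on the left and -1.93 on the right. The endothelial marker sums were lower at 48 h in each artery and the erythroid sums higher, in both cases without overlap between the times in the ranges given above. The fibroblast sums were higher at 48 h without overlap on the left, and overlapped on the right. The leukocyte sums were 15358 to 19792 (left) and 15452 to 19740 (right) at 12 h. Against their 48 h ranges given above, they were higher at 48 h without overlap on the left, and overlapped on the right. All these sums are raw signals, not adjusted for the lower array medians at 48 h. The part of these marker shifts in the differences was not tested. Without left sample 3, the left values were -0.89 for miR-29a, -1.45 for miR-29b and -3.17 for miR-29c.

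In every one of these 6 cases no 48 h sample reached the lowest 12 h sample. Over the 363 probes tested at both times, 17.4% showed this on the left and 11.8% on the right, and 22.9% (left) and 11.8% (right) lay wholly higher at 48 h. The median 48 h minus 12 h difference of these probes was 0.31 on the left and 0.17 on the right. Of the 363, 5.51% had a lower left difference than miR-29c and 6.89% a lower right one. For miR-29a the shares were 10.5% (left) and 14.3% (right), and for miR-29b 7.99% (left) and 18.7% (right).

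Set in order, the 4 group means ran the same way for each member, from right at 12 h through left at 12 h and right at 48 h down to left at 48 h. The share of all probes with this order was not computed. For miR-29c the left minus right step at 12 h was -0.05, and 0.02 without left sample 3 of 12 h. The 2 arteries next to each other within a time did not differ past the threshold for any member. With left sample 3 left out, the 48 h mean of miR-29a was 12.74 in the left artery, equal to the 12.74 of the right at this rounding.

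The spread within groups also set the times apart. At 12 h the SDs of the members were 0.11, 0.14 and 0.15 (left) and 0.06, 0.15 and 0.05 (right) for miR-29a, miR-29b and miR-29c, under the median SD of all probes, 0.42 (left) and 0.39 (right). At 48 h they were 3.18, 2.75 and 1.08 (left), above the median of 0.60, and 0.67, 0.58 and 1.64 (right), of which miR-29c alone was above the median of 0.86. In the left carotid 93.9% of probes had a smaller SD than miR-29a. That rank rests on left sample 3: without it the left SDs were 0.27 for miR-29a, 0.95 for miR-29b and 1.20 for miR-29c, against a median of 0.57 over 404 probes, so that miR-29a lay below the median. At 12 h the arteries have 3 samples each, so these SDs are themselves rough.

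No relation between members across the 48 h samples passed a permutation test. Normalized values were centred on the mean of their artery and 5 relations were computed, with p from permutations within each artery. miR-29a and miR-29b, whose hairpins on chromosome 6 are neighbours, had r = 0.88 over the 12 samples (permutation p = 0.151, adjusted 0.378) and rho = 0.47 (permutation p = 0.249, adjusted 0.414). Without the 2 samples farthest from the median of miR-29a, left 3 and right 2, r was -0.37. Without left sample 3 alone it was -0.36 (permutation p = 0.207, adjusted 0.448), so the r of 0.88 rests on that sample.

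miR-29b and miR-29c, neighbours on chromosome 1, had r = 0.05 and rho = 0.10 over the 12 samples (permutation p = 0.829 and 0.719, adjusted 0.829 and 0.783), and r = 0.10 without left samples 3 and 4. miR-29a and miR-29c, which sit on different chromosomes and differ by 1 base, had r = -0.06 and rho = 0.08 (permutation p = 0.798 and 0.783, adjusted 0.829 and 0.783), and r = 0.07 without left 3 and right 2. Right samples 1, 2 and 6, high for miR-29c, stood at 12.49, 11.66 and 13.39 for miR-29a, which spans the whole right range of that member.

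**Figure D4:**
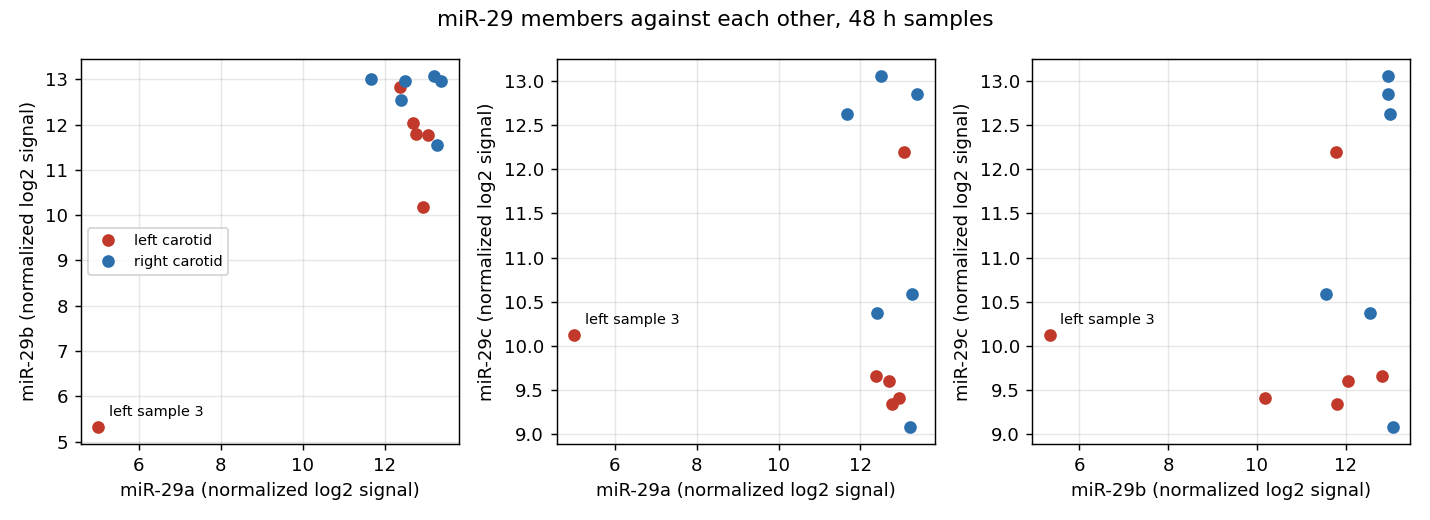
Normalized log2 signals of miR-29a, miR-29b and miR-29c plotted against each other for the 48 h samples, red for the 6 left and blue for the 6 right samples. Left sample 3 stands alone at 5.00 for miR-29a and 5.33 for miR-29b, and at 10.12 for miR-29c, inside the range of the other left samples.

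The minor strands, which are not members, gave their own pattern: miR-29a*, from the same hairpin as miR-29a, was detected on all 24 arrays with a left minus right difference of -0.01 ± 0.34 SE at 12 h and 0.25 ± 0.37 SE at 48 h (limma adjusted p = 0.994 and 0.751), and was in no 48 h left sample below the right mean. Across the 48 h samples it ran against miR-29a, with r = -0.49 (permutation p = 0.00817, adjusted 0.0408) and rho = -0.47 (permutation p = 0.0277, adjusted 0.139). The r was -0.74 without left 3 and right 2, and -0.69 without left sample 3 alone (permutation p = 0.0935, adjusted 0.448), so the call was lost with 1 sample removed. For comparison, miR-29c and miR-29c* had r = -0.38 and rho = -0.42 (permutation p = 0.248 and 0.194, adjusted 0.414 for each), and r = -0.16 without right 1 and right 6.

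Other miRNAs known to act on matrix production were read as 2 lists compiled from general knowledge. The lists were made with earlier results of these data known, so their counts beside those of all probes are a description only. Of 22 miRNAs known to repress matrix genes or their inducers, 19 were tested at each time. At 12 h 0 passed, with 12 of 19 below 0 and a median of -0.04, against -0.05 for all probes. At 48 h 2 were lower and 0 higher past the threshold, where 0.983% of all probes were lower, with 13 of 19 below 0 and a median of -0.17, against -0.00 for all. The 2 were let-7d, whose family is known for silencing growth-promoting genes (-1.02 ± 0.20 SE, limma adjusted p = 0.0227), and miR-26a, known to damp SMAD signalling (-0.43 ± 0.09 SE, limma adjusted p = 0.0240). Over 20 alternatives added once the data were known, both stayed below 0, and the call was lost in 5 for let-7d and 6 for miR-26a. Both calls were lost with scaling to the 75th percentile (limma adjusted p = 0.0840 for let-7d and 0.358 for miR-26a), with the replicate block (0.0949 and 0.124) and without left sample 5, right sample 2 or right sample 6 (0.0510 to 0.0514), and that of miR-26a with no intensity trend (0.161). Other list entries, named after their values were seen, were called in some alternatives. miR-200c was called higher without right sample 3 and without right sample 5, and miR-195 lower without left sample 6. With all samples these stood at 4.37 ± 1.23 SE and -2.43 ± 0.73 SE (limma adjusted p = 0.0898 and 0.104).

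In an alternative added once the data were known, the fit without left sample 3, 3 of the 19 were lower, let-7d, miR-26a and miR-30c, where 1.49% of 404 probes were lower, and the list's median was -0.41, against -0.04 for all probes. miR-30c, named after its value was seen, stood at -0.55 ± 0.13 SE in that fit (limma adjusted p = 0.0460). Of the 5 miRNAs known to promote matrix production, 0 passed at either time (limma), with medians of -0.14 at 12 h and 0.02 at 48 h. Those with the lowest p at 48 h were miR-34a, a target of p53 (-1.21 ± 0.90 SE, limma adjusted p = 0.495), and miR-199a-5p, abundant in mesenchymal cells (0.19 ± 0.41 SE, limma adjusted p = 0.855).

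The miRNAs most like each member were read from correlations of normalized level over all 18 samples, each value centred on its time, among 358 probes, as a description. For miR-29a they were miR-30c (r = 0.96), miR-152 (0.95) and let-7g (0.94), and for miR-29b they were miR-30c (0.94), miR-26b (0.93) and let-7g (0.89). These rested on left sample 3, in which miR-30c and miR-152 were also undetected: without it, the same probes had r = 0.40, 0.47 and 0.31 with miR-29a and 0.58, 0.59 and 0.21 with miR-29b. For miR-29c the closest were miR-467a (0.66), miR-19a (0.61) and miR-743a (0.61), at 0.69, 0.60 and 0.60 without left sample 3. No probe was among the closest of all 3 members.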

How the data were processed

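RNA from flushed carotid intima was labelled with Cy3 and hybridised to Illumina miRNA bead arrays, per the labels' protocols. The deposited tables, 1 per time, hold a non-normalized signal intensity and a detection p-value per probe and array, per the file headers. The submitters' processing notes name GenomeStudio 2010.2. No source states a background subtraction. The authors' processed intensity values differ from plain quantile normalization within each time by a median of 0.193% at 12 h and 0.475% at 48 h. Columns name artery and number, and their time was taken from the processed column with the same rank order. No slide or scan date was used here.

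Signals were background-corrected from the detection p-values and quantile-normalized per time with an offset of 16 before log2 (the neqc method of limma 3.58.1, R 4.3.3). Repeat arrays (rank correlation above 0.98) were averaged. Probes detected on at least 3 arrays of a group were tested, left against right, with limma (lmFit, then eBayes with the trend option). Tests were two-sided and Benjamini-Hochberg adjusted over all probes tested. The fit was tested on simulated data. The number of samples limits the precision.

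The members and lists were chosen with earlier results of these data known. Named were the 3 members, their minor strands in brief, the 2 entries of each matrix list with the lowest p at 48 h, and the 3 probes most correlated with each member. List entries called only in an alternative were named after their values were seen. Lists of endothelial, smooth muscle, leukocyte, striated muscle, erythroid, fibroblast, neuronal, epithelial and liver markers were read as detection and summed signal. Alternatives were another background correction, scaling, offset, detection filter and model, the processed values, a replicate block, every array as a sample, an exact permutation test and leaving out each sample.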

Additional observations from a re-analysis of the deposited data

Results flagged for a closer look

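In 4 of the 6 groups of 48 h values (3 members, 2 arteries), the highest or lowest sample lay far from the others relative to the group's whole range. For normally spread values, chance gives about 1 such group in 20. The share over all probes was not computed, so the count is not read as a trait of the family. The flags of miR-29a and miR-29b on the left come from the same array, on which neither was detected. Left sample 3 was the lowest for miR-29a, at a normalized log2 signal of 5.00 against 12.38 for the next sample, and for miR-29b, at 5.33 against 10.17. Left sample 2 was the highest for miR-29c on the left, at 12.20 against 10.12 for the next. In the right carotid, right sample 3 was the lowest for miR-29b, at 11.55 against 12.54 for the next. The cause of these values was not tested.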

How the results depend on the processing

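Over 192 alternative values for the 9 differences (3 members at 12 h, at 48 h and between times), 187 kept their direction and their side of the threshold, 3 changed sign and 2 passed a threshold not passed before. The sign changes came from leaving out 1 sample: miR-29c at 12 h became 0.02 without left sample 3 (range -0.13 to 0.02), and without left sample 3 of 48 h, miR-29a at 48 h became 0.03 (range -1.57 to 0.03) and its change between times 0.20 (range -1.41 to 0.20). Of the other 2, miR-29b at 12 h kept its value of -0.30 but had a limma adjusted p of 0.0180 when every array counted as a sample, which raises n from repeat arrays, against 0.413; over all its alternatives the adjusted p ran from 0.0180 to 0.717. miR-29b at 48 h (-2.02) had an exact permutation p of 0.0411, unadjusted. Leaving out samples gave -2.47 to -0.95 for miR-29b and -1.91 to -1.03 for miR-29c at 48 h.

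With the replicate block the members at 48 h kept their values of -1.26, -2.02 and -1.38 (limma adjusted p = 0.678, 0.271 and 0.350). At 12 h they kept -0.17, -0.30 and -0.05 (limma adjusted p = 0.513, 0.369 and 0.844). The SE of miR-29b at 12 h was 0.07 with the block, against 0.11 without it. Its unadjusted limma p was 0.0116, against 0.0346. No call of a member changed with the block. The numbers share only a number: deviations of same-numbered left and right samples correlated at -0.17 to 0.02 at 48 h and 0.02 to 0.06 at 12 h, where each left sample correlated best with its own number, as a hint from the data only. The number of all probes called, 2, 12 and 1 at 12 h, 48 h and between times, ran from 0 to 72, 0 to 25 and 0 to 17. At 12 h it was 0 with the replicate block, 1 with no background correction, an offset of 50, no filter on dim probes, the authors' processed values or without right sample 2 or 3, 6 without left sample 1, and 72 with every array as a sample. At 48 h it was 0 with the replicate block, 1, 6, 4 and 4 without left 5, left 4, right 2 and right 6, 7 with no intensity trend, 4 with scaling to the 75th percentile and 25 with no filter on dim probes. Between times it was 0 with the processed values, 3 with that scaling, 6 with no filter, 17 with every array as a sample, 4, 7 and 6 without left sample 1, 2 and 3 of 12 h, and 2 without left sample 1 of 48 h or right sample 1 of 12 h. That scaling gave 3 higher and 1 lower at 48 h, in place of 8 and 4, and a median change between times over all probes of -0.16, in place of 0.07. The causes of these shifts were not tested. miR-29a and miR-29b were not detected in left sample 3, so their levels there are only bounds.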

Other observations

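The minor strand of Mir29b-1, miR-29b*, was bright in some samples and undetected in others. At 12 h its raw signals ran from 91 to 3155 on the left arrays, 4 of 6 detected, and from 269 to 5196 on the right arrays, 5 of 6 detected. Sample 1 was the lowest in both arteries, at 91 and 155 on the left and 269 and 430 on the right, while every other array read 1874 or more. At 48 h it was detected on 0 of 6 left and 1 of 6 right arrays, right sample 6 at 1992, and the other 11 arrays read 69 or less. miR-29b, read from both of its hairpins, was detected on all but 1 of the same 24 arrays.

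miR-29c*, the minor strand of Mir29c, was detected on 6 of 6 left and 5 of 6 right arrays at 12 h and on 2 of 6 left and 4 of 6 right arrays at 48 h. Its raw signals at 48 h ran from 88 to 2494 on the left and from 89 to 5595 on the right, with a left minus right difference of -1.08 ± 1.17 SE (limma adjusted p = 0.658). The highest were left sample 5 at 2494 and right sample 5 at 5595, which read 798 and 1317 for miR-29c. Right samples 1 and 2, at 7937 and 5608 for miR-29c, did not detect its minor strand (89 and 106).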
